A study of Mus musculus with 8 samples.

Results

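The 10 genes described here encode proteins that move magnesium across the membranes of a cell, or that control this movement: the channels Trpm6 and Trpm7, the CNNM proteins Cnnm2, Cnnm3 and Cnnm4, the SLC41 transporters Slc41a1, Slc41a2 and Slc41a3, the small GTPase Arl15 and the mitochondrial channel Mrs2. They were listed by name, with earlier results of these data known, out of 42416 gene identifiers in each count file. All 10 passed the filter on low counts, as did 14268 genes in all. RNA was sequenced from distal convoluted tubule fragments of 8 mice, in a study of how calcineurin inhibitor drugs cause kidney side effects. The 4 KO libraries came from mice labelled Cnb1fl Tg/Tg and the 4 Control libraries from mice labelled Cnb1fl wt. Cnb1 is another name of Ppp3r1, the regulatory subunit of the phosphatase calcineurin. Mice of both groups carried the transgenes labelled NCCcre Tg/+ and TOMATO Tg/+, and all had tamoxifen by gavage, 2 mg a day for 5 days, with tissue taken 3 weeks later. Cre was therefore directed to cells that use the promoter of the NaCl cotransporter, and 1000 fragments went into each library. The age of the mice is not given in the sources used here. Each label names another animal number, and replicate numbers below only name libraries.

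The distal convoluted tubule reabsorbs magnesium through its cells and sets how much is lost in urine. Magnesium enters from the tubule fluid through Trpm6, an apical channel fused to a kinase that can assemble with its relative Trpm7, and leaves on the blood side by a route in which Cnnm2 and SLC41 proteins have been placed. In people, loss of TRPM6 or CNNM2 causes low blood magnesium, and low blood magnesium is also a known side effect of calcineurin inhibitors.

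Total counts ranged from 18161442 to 45150953 per library in KO and from 19911826 to 42389558 in Control, and members held between 40 and 44336 counts in a library. The cotransporter gene Slc12a3, which defines the segment, stood at 8074 CPM in KO replicate 1 and 3911 to 4521 CPM in the other KO libraries, against 5651 to 8049 CPM in Control. The groups thus overlapped through KO replicate 1 alone (log2 fold change -0.41, edgeR adjusted p = 0.49). CPM, the usual depth-scaled read count, are given on library sizes scaled by edgeR's TMM method. Ppp3r1 itself ranged from 74 to 97.7 CPM in KO and from 84.4 to 108 CPM in Control (log2 fold change -0.18 ± 0.13, SE, edgeR quasi-likelihood adjusted p = 0.548). The counts cover the whole gene, so they do not check the deletion or the genotype labels. On the first principal component of the 500 most variable genes, with 51.5% of the variance, KO replicate 4 lay farthest out, at 28.2, against -0.183 to 15.3 for the other KO libraries and -16.2 to -6.98 for Control. On the second component, with 20.3%, Control replicate 1 lay at -21.1 and the other 7 libraries between -3.98 and 10.1.

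Upstream sequence is shown for 4 of the 5 members that passed the test below, to let it be set beside their levels. Each run is the first 230 of the 250 bases before the RefSeq start site on GRCm38.p6, 5′ to 3′ on the gene's own strand. Capitals mark GGAAA, the core of the motif bound by NFAT, the transcription factors that calcineurin activates, or its reverse complement.
Trpm6, chr19:18749480-18749709, plus strand: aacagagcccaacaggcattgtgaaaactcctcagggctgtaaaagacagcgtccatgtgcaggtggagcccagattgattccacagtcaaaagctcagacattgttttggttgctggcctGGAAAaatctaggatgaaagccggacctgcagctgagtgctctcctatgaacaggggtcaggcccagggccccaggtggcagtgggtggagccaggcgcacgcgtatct
Trpm7, chr2:126876282-126876511, minus strand: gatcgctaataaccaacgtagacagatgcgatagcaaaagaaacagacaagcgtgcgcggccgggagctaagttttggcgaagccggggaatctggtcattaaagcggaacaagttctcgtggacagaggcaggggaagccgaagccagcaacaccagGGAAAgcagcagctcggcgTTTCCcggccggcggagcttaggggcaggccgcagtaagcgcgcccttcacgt
Cnnm2, chr19:46761359-46761588, plus strand: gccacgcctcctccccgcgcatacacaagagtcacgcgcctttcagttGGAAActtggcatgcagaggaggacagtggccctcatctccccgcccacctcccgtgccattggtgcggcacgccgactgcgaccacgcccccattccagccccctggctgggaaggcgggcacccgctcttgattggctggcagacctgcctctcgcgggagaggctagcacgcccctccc
Arl15, chr13:113794258-113794487, plus strand: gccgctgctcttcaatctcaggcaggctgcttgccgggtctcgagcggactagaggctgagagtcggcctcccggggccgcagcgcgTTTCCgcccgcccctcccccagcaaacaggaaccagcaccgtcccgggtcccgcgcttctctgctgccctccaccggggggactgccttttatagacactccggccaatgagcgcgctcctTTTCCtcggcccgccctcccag
The motifs were searched on both strands of the 300-base windows, which end 50 bases after the start site. GGAAA was present in 6 of the 9 members with a RefSeq window, against 61.3% of all 32851 windows, and its matches did not overlap another motif. Among members that did not pass the test, whose sequences are not shown, Slc41a1 held 3 matches, Slc41a2 held 1 and Cnnm3 and Cnnm4 held 0. The AP-1 motif TGANTCA was in 0 of 9, against 7.81% of all windows. The HNF1 motif GTTAAT was in 1 of 9, in Cnnm3, against 7.1%. The RefSeq start of Slc41a3 lay 14521 bases inside its GENCODE gene, and its window held 0 matches to any of the motifs. The GENCODE start of Trpm6 differs from the RefSeq start used here by -253 bases, RefSeq minus GENCODE. A match is a run of letters and not a shown binding site.

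Of the 10 members, 4 fell in KO (Trpm6, Cnnm2, Slc41a3 and Arl15), 1 rose (Trpm7) and 5 did not pass the threshold, an adjusted p of 0.05 by edgeR's quasi-likelihood test with Benjamini-Hochberg adjustment over all genes. Over all genes tested, 0.876% fell, 1.34% rose and 2.21% passed in either direction. The median log2 fold change was -0.37 over the members, with 5 above 0 and 5 below, and -0.02 over all genes. In the same 5 members every KO value lay outside the range of the Control values, as held for 9.44% of all genes tested. DESeq2 and limma-voom each called 4 members lower and 1 higher. Leaving out KO replicate 2 left 1 member called, leaving out Control replicate 4 left 2, and a model with a term for the first digits of the animal number left 1, Cnnm2.

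**Figure D1:**
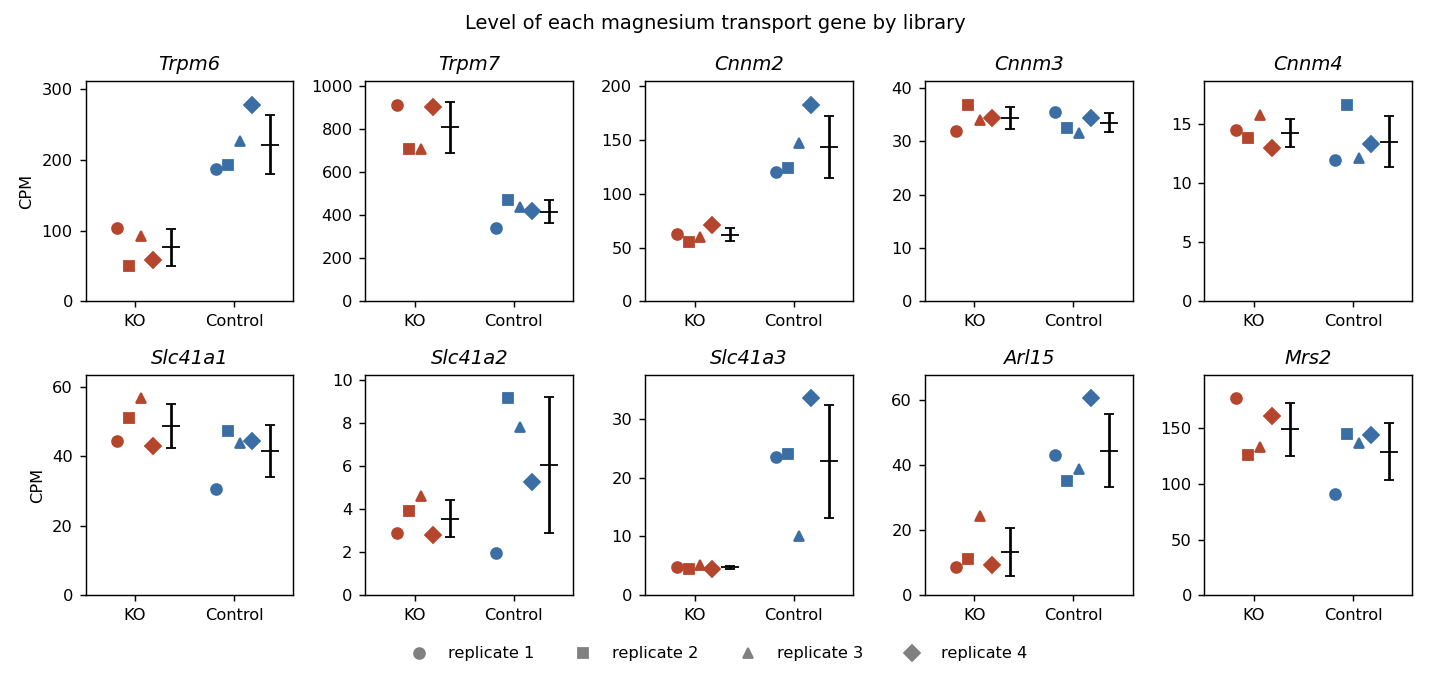
CPM of each of the 10 genes in the 4 KO (red) and 4 Control (blue) libraries, with the mean and SD as black bars; symbols name the replicate, and each panel has its own axis from 0. Groups are separate in Trpm6, Trpm7, Cnnm2, Slc41a3 and Arl15 and overlap in the other panels.

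The channels moved in opposite directions. Trpm6 (ENSMUSG00000024727, chromosome 19, 18749983 to 18892511, plus strand, GRCm38) was at 104, 50.2, 91.8 and 59 CPM in KO replicates 1 to 4, against 187, 193, 227 and 278 CPM in Control replicates 1 to 4. The highest KO library was below the lowest Control library. KO averaged 76.3 ± 25.8 CPM, against 221 ± 42.1 CPM in Control (SD, n = 4 each). The log2 fold change was -1.53 ± 0.24 (SE, edgeR adjusted p = 0.0156), which left KO at 34.5% of the Control mean. The call was lost without KO replicate 2 (edgeR adjusted p = 0.0591), without Control replicate 4 (0.0596) and with the animal number term (0.089). Fold changes over all settings lay between -1.73 and -1.38.

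Trpm7 (ENSMUSG00000027365, chromosome 2, 126791565 to 126876230, minus strand), the widely expressed channel kinase, was at 912, 705, 706 and 902 CPM in KO replicates 1 to 4, against 341, 468, 436 and 419 CPM in Control replicates 1 to 4. All KO libraries stood above all Control libraries, and KO averaged 194% of Control. The log2 fold change was 0.95 ± 0.15 (SE, edgeR adjusted p = 0.0157). The same settings ended this call, with edgeR adjusted p of 0.055 without KO replicate 2, 0.0628 without Control replicate 4 and 0.097 with the animal number term. Transcripts of Trpm6 and Trpm7 share 0 words of 50 bases, so a read of that length cannot be moved whole from one to the other.

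Within each library the pair can be compared without any scaling of library totals. The log2 ratio of Trpm6 to Trpm7 counts was -3.13, -3.81, -2.94 and -3.93 in KO replicates 1 to 4, against -0.87, -1.28, -0.94 and -0.59 in Control replicates 1 to 4. The means differed by -2.54, with a range of -2.71 to -2.38 when any 1 library was left out. Scaled by exon length, Trpm6 made up 12.1% ± 3.59 of the Trpm6 and Trpm7 sum in KO and 43.7% ± 4.78 in Control (SD, n = 4 each). The sum itself was 68.8 to 94.1 CPM per kilobase of exon in KO and 54.3 to 73.1 in Control, with overlap. Scaled by the longest transcript instead, the sum was 107 to 144 in KO and 76.7 to 102 in Control, without overlap, and the share of Trpm6 was 9.36% ± 2.85 in KO and 36.7% ± 4.51 in Control (SD, n = 4 each).

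**Figure D2:**
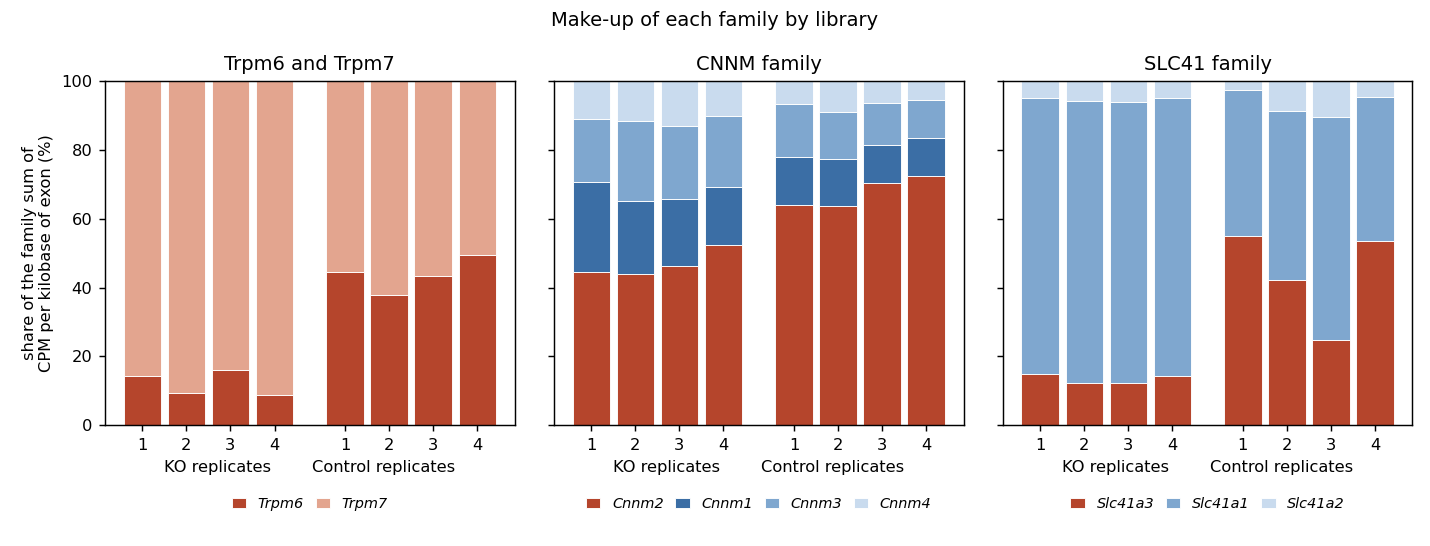
Share of each family's summed CPM per kilobase of exon held by its members in each library, KO replicates left and Control replicates right. Trpm6, Cnnm2 and Slc41a3 (red) hold a smaller share in every KO library than in any Control library, which restates their fold changes.

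Among the CNNM proteins, a single member fell. Cnnm2 (ENSMUSG00000064105, chromosome 19, 46761596 to 46880192, plus strand), found on the blood side of these cells, was at 62.6, 55.6, 59.8 and 70.6 CPM in KO replicates 1 to 4, against 120, 124, 147 and 183 CPM in Control replicates 1 to 4. The groups did not overlap, and KO libraries were closer to each other (coefficient of variation 10.2%) than Control libraries (19.9%). The log2 fold change was -1.21 ± 0.15 (SE, edgeR adjusted p = 0.00874), with KO at 43.3% of Control. Of the 5 members past the threshold, Cnnm2 alone kept its call under all 16 other settings, with fold changes from -1.28 to -1.06 and an adjusted p of at most 0.0435.

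Cnnm3 (ENSMUSG00000001138, chromosome 1, 36511867 to 36528237, plus strand), known for its binding to PRL phosphatases, was at 31.9, 36.9, 34.1 and 34.4 CPM in KO replicates 1 to 4, against 35.6, 32.6, 31.6 and 34.3 CPM in Control replicates 1 to 4. The groups overlapped throughout, with a log2 fold change of 0.03 ± 0.10 (SE, edgeR adjusted p = 0.893) and an approximate 95% interval of -0.16 to 0.23. Cnnm4 (ENSMUSG00000037408, chromosome 1, 36471620 to 36508764, plus strand), a basolateral magnesium extruder of gut epithelium, was at 14.5, 13.8, 15.7 and 12.9 CPM in KO replicates 1 to 4, against 11.9, 16.6, 12.1 and 13.3 CPM in Control replicates 1 to 4. Its log2 fold change was 0.07 ± 0.15 (SE, edgeR adjusted p = 0.833) with an interval of -0.21 to 0.36. Both genes lie next to each other and share 13 words of 50 bases, the 1 pair of 45 among the members to share any, so a few reads of each could count for the other. Exons of Cnnm4 also overlap the microRNA gene Gm47280 by 141 bases on the same strand, which held 4.09% as many counts. Those of Cnnm3 overlap Gm38033 on the opposite strand, which held 0 counts.

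The ratio of Cnnm2 to Cnnm3 counts, on the log2 scale, was 0.59 to 1.04 in KO and 1.76 to 2.41 in Control. Scaled by length and with Cnnm1 included, a CNNM gene outside the 10, Cnnm2 held 46.7% ± 3.84 of the family sum in KO and 67.7% ± 4.41 in Control (SD, n = 4 each). The family sum was 24.6 to 27.2 CPM per kilobase in KO and 36.4 to 48.8 in Control, without overlap. Cnnm1 was at 30.9 ± 6.64 CPM in KO and 28.5 ± 2.31 CPM in Control (log2 fold change 0.12 ± 0.15, edgeR adjusted p = 0.748).

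Arl15 (ENSMUSG00000042348, chromosome 13, 113794505 to 114157461, plus strand), a small GTPase that binds CNNM proteins and affects their glycosylation, was at 8.8, 11, 24.3 and 9.22 CPM in KO replicates 1 to 4, against 43.3, 35.1, 38.9 and 60.6 CPM in Control replicates 1 to 4. KO replicate 3 stood well above the other KO libraries and still below all Control libraries. The log2 fold change was -1.74 ± 0.33 (SE, edgeR adjusted p = 0.0291), and KO averaged 29.9% of Control. Without KO replicate 3 it was -2.21 (edgeR adjusted p = 0.00295). The call was lost without any 1 of KO replicates 1, 2 and 4 or Control replicates 1, 3 and 4 and with the animal number term, with edgeR adjusted p from 0.0576 to 0.134, while the fold change stayed between -2.21 and -1.56.

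Of the SLC41 transporters, Slc41a3 fell and the other members did not pass. Slc41a3 (ENSMUSG00000030089, chromosome 6, 90604725 to 90646412, plus strand), whose loss lowers blood magnesium in mice, was at 4.83, 4.51, 5.08 and 4.46 CPM in KO replicates 1 to 4, against 23.5, 24.1, 10 and 33.5 CPM in Control replicates 1 to 4. The KO libraries lay close together (coefficient of variation 6.12%), whereas the Control libraries were spread (42.4%), with replicate 3 lowest. The log2 fold change was -2.27 ± 0.31 (SE, edgeR adjusted p = 0.00988), with KO at 20.7% of Control, the lowest percentage of the 10 genes. It was lost without KO replicate 2 (edgeR adjusted p = 0.054) and with the animal number term (0.0578).

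Slc41a1 (ENSMUSG00000013275, chromosome 1, 131827493 to 131848865, plus strand), proposed to exchange sodium for magnesium, was at 44.4, 51.2, 56.7 and 43 CPM in KO replicates 1 to 4, against 30.7, 47.3, 43.9 and 44.4 CPM in Control replicates 1 to 4. Groups overlapped (log2 fold change 0.23 ± 0.15, SE, edgeR adjusted p = 0.519, interval -0.07 to 0.53). Slc41a2 (ENSMUSG00000034591, chromosome 10, 83230848 to 83337882, minus strand) was the lowest of the 10, with 40 to 380 counts in a library. It was at 2.88, 3.93, 4.6 and 2.81 CPM in KO replicates 1 to 4, against 1.95, 9.14, 7.79 and 5.26 CPM in Control replicates 1 to 4. Control replicate 1 held the lowest value of all 8, and the log2 fold change was -0.77 ± 0.41 (SE, edgeR adjusted p = 0.425), with an interval from -1.57 to 0.03. Without that library it was -1.07 ± 0.26 (edgeR adjusted p = 0.0908). Within libraries the mean log2 ratio of Slc41a3 to Slc41a1 differed by -2.39, KO minus Control, with a range of -2.78 to -2.20 when any 1 library was left out, and the groups did not overlap. By length-scaled level, Slc41a3 held 13.4% ± 1.3 of the family sum in KO and 43.9% ± 13.9 in Control (SD, n = 4 each). The family sum was 10.8 to 14.1 CPM per kilobase in KO and 13.8 to 21.5 in Control, with overlap. Scaled by the longest transcript, the sum was 11.6 to 15.1 in KO and 15.1 to 24.4 in Control, just without overlap.

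Mrs2 (ENSMUSG00000021339, chromosome 13, 24987483 to 25020379, minus strand), the channel that lets magnesium into mitochondria, was at 177, 126, 133 and 161 CPM in KO replicates 1 to 4, against 90.9, 145, 137 and 144 CPM in Control replicates 1 to 4. The groups overlapped, with a log2 fold change of 0.21 ± 0.17 (SE, edgeR adjusted p = 0.603) and an interval of -0.13 to 0.55. Without Control replicate 1, the lowest library, it was 0.07. Its exons overlap Gpld1 on the opposite strand, which held 2.57% as many counts, and the strand setting of the counting is not given in the sources used here.

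**Figure D3:**
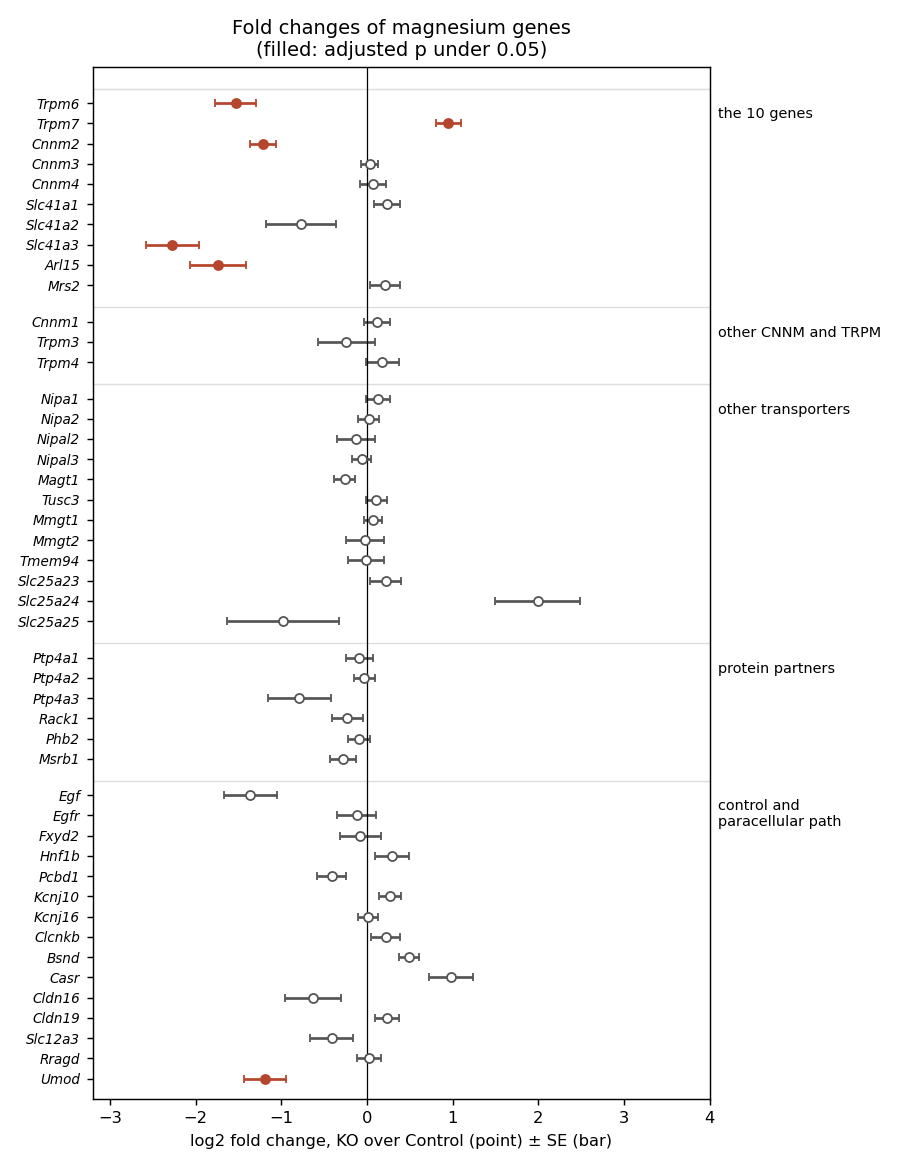
Log2 fold change, KO over Control, of the 10 genes and of the other magnesium genes tested, with bars of 1 SE; filled points have an edgeR adjusted p under 0.05. Pvalb, at -8.06, is off the axis and not drawn. Among the genes drawn, Umod is the one filled point outside the 10.

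Compared per length of exon, the order of the members differed between groups. In KO the order was Trpm7 (71.2 ± 10.3 CPM per kilobase, SD, n = 4), Mrs2 (19.6 ± 3.13), Cnnm2 (12 ± 1.22), Slc41a1 (9.94 ± 1.29), Trpm6 (9.89 ± 3.35), Cnnm3 (5.35), Arl15 (3.79), Cnnm4 (2.94), Slc41a3 (1.62) and Slc41a2 (0.665). Neighbours whose libraries overlapped in KO were Cnnm2 and Slc41a1, Slc41a1 and Trpm6, Cnnm3 and Arl15, and Arl15 and Cnnm4. In Control the order was Trpm7 (36.8 ± 4.75), Trpm6 (28.7 ± 5.45), Cnnm2 (27.8 ± 5.53), Mrs2 (17 ± 3.38), Arl15 (12.6 ± 3.2), Slc41a1 (8.46), Slc41a3 (7.82), Cnnm3 (5.23), Cnnm4 (2.79) and Slc41a2 (1.13). There Trpm7 overlapped Trpm6, Trpm6 overlapped Cnnm2, Mrs2 overlapped Arl15, Slc41a1 overlapped Slc41a3 and Slc41a3 overlapped Cnnm3. Trpm6 thus held place 5 in KO and place 2 in Control, and Slc41a3 place 9 in KO and place 7 in Control. These places depend on the length used: scaled by the longest transcript, Trpm6 held place 4 in KO and 2 in Control and Slc41a3 place 9 in KO and 6 in Control. Trpm7 was then at 113 ± 16.4 in KO and 58.5 ± 7.56 in Control (SD, n = 4 each), without overlap with Trpm6 in Control.

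**Figure D4:**
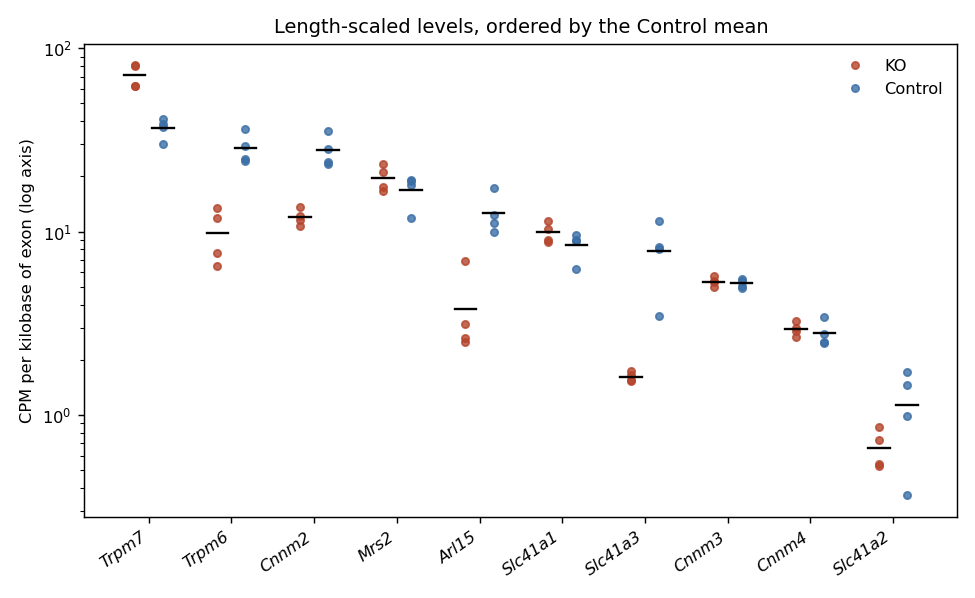
CPM per kilobase of exon (log axis) of the 10 genes in each KO (red) and Control (blue) library, with the group mean as a black line, ordered by the Control mean. The KO points of Trpm6 and Cnnm2 lie near those of Slc41a1, while the Control points lie near those of Trpm7.

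Libraries within a group were not alike across the members. Control replicate 4 was the highest Control library in all 4 members that fell, and Control replicate 1 was the lowest Control library in 7 of the 10 members. KO replicate 2 was the lowest KO library in Trpm6, Trpm7, Cnnm2 and Mrs2. In the 1 KO and 1 Control mouse with consecutive animal numbers in a series of their own, Trpm6, Cnnm2, Slc41a3 and Arl15 differed by -0.83, -0.93, -2.07 and -2.18 on the log2(CPM + 1) scale and Trpm7 by 1.42, KO minus Control. Among the 3 KO and 2 Control mice of another number series the same genes differed by -1.68, -1.12, -1.55 and -1.38, and Trpm7 by 0.76. Mrs2 differed by 0.96 between the first mice and by -0.02 in the other series. Differences also turned sign in Cnnm3 (-0.15 between the first mice, 0.12 in the other series) and Cnnm4 (0.26 between the first mice, -0.01 in the other series). Slc41a2 differed by 0.39 between the first mice, while in the other series its mean was 2.24 in KO and 3.24 in Control on the same scale. Control replicate 4 has a number of neither series. The KO and the Control file whose names carry an index sequence gave -0.88, -0.97, -2.10 and -1.88 for the 4 genes that fell and 0.96 for Trpm7. The other 3 KO and 3 Control files gave -1.80, -1.25, -1.89 and -1.71 for them and 0.95 for Trpm7.

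**Figure D5:**
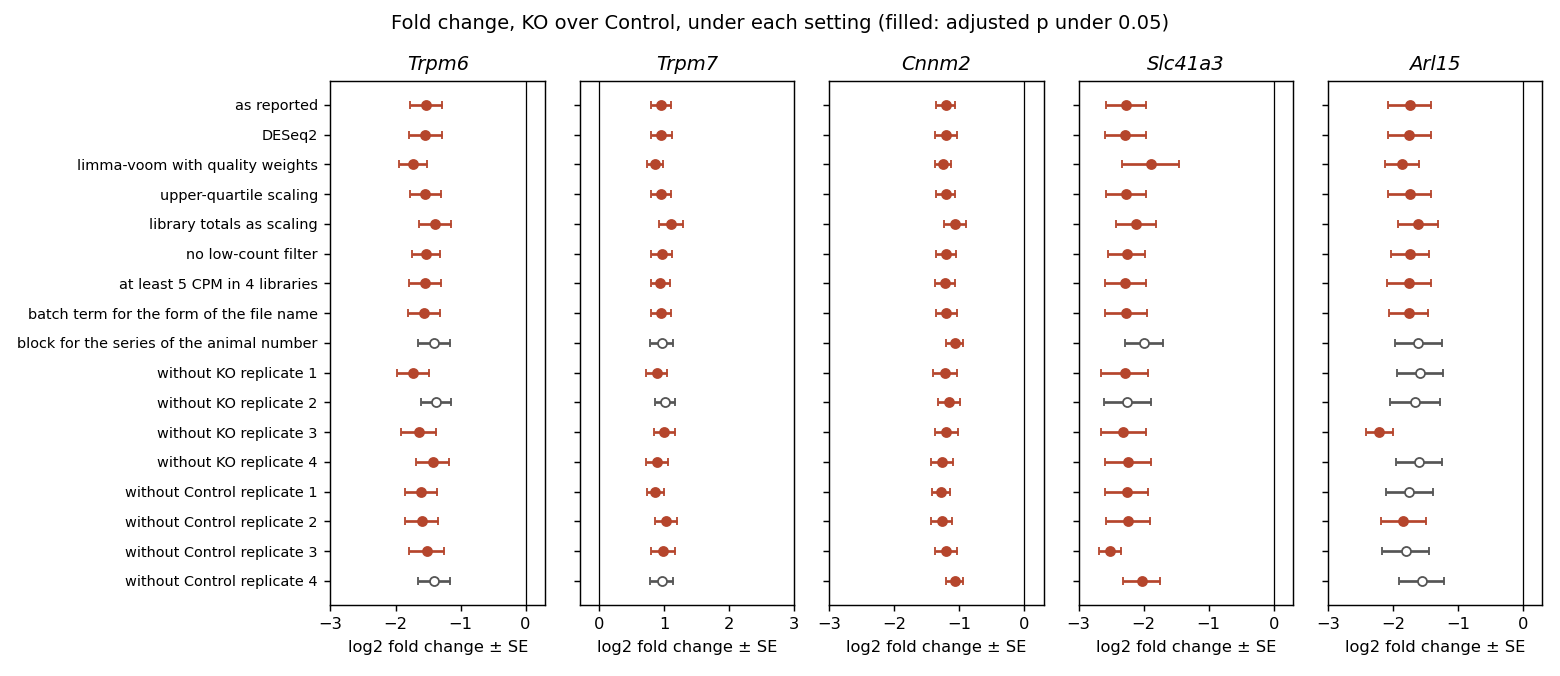
Log2 fold change, KO over Control, of the 5 genes past the threshold as reported and under 16 other settings, with bars of 1 SE; filled points have an adjusted p under 0.05. Every point stays on its side of 0, and the open points stand at settings with fewer libraries and at the animal number block.

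Some markers of cell types and of dividing cells differed between the genotypes, and their part in these results was not tested. Which cells of the fragments held these transcripts was not tested either. In bulk samples, fewer cells of a type and less RNA per cell cannot be told apart. Of 7 distal convoluted tubule markers, 1 rose (Tfap2b) and 2 fell (Pvalb and Klhl3), and their summed level was 10897 CPM in KO replicate 1 and 7028 to 7318 CPM in the other KO libraries, against 10363 to 13166 CPM in Control. Without Slc12a3, the most abundant of them, the sum was 2713 to 3407 CPM in KO and 4086 to 5117 CPM in Control, without overlap. Most of this remainder was Wnk1, at 2017 to 2698 CPM in KO and 2942 to 3707 CPM in Control (edgeR adjusted p = 0.107). Emx1 and Sall3 had log2 fold changes of -0.11 and 0.17 (edgeR adjusted p = 0.861 and 0.668). Of 5 markers of the thick ascending limb, the segment just upstream, 1 fell (Umod), and their sum was 2738 to 5465 CPM in KO and 7462 to 12216 CPM in Control, without overlap. Umod made up 80.8% to 92% of that sum, and the other 4 markers summed to 311 to 1041 CPM in KO and 777 to 1433 CPM in Control, which overlap, with edgeR adjusted p from 0.345 (Cldn10) to 0.602 (Ptger3). All 6 markers of dividing cells rose, with edgeR adjusted p from 0.00988 (Mki67) to 0.0499 (Birc5), the last just under the threshold. Their sums were 25.9 to 89.1 CPM in KO and 8.44 to 10.9 CPM in Control. Of the 6 macrophage and leukocyte markers, 4 could be tested, with edgeR adjusted p from 0.064 (Csf1r) to 0.947 (C1qb) and sums of 18.6 to 76.6 CPM in KO and 9.95 to 12 CPM in Control. Csf1r made up 51.4% to 94.3% of these sums, and the other 5 markers summed to 4.38 to 14.8 CPM in KO and 2.61 to 4.41 CPM in Control, with overlap. Connecting tubule, intercalated, proximal tubule, endothelial and fibroblast markers had edgeR adjusted p of 0.0993 (Avpr2) or more, and their sums overlapped between groups. Log2 fold changes ran from -1.61 to -0.56 in connecting tubule, -0.64 to -0.45 in proximal tubule and -0.83 to -0.36 in endothelial markers. They ran from -0.22 to 0.95 in intercalated and from -1.15 to -0.53 in the tested fibroblast markers. The connecting tubule sums overlapped only through KO replicate 3 (375 CPM) and Control replicate 1 (353 CPM). Proximal tubule markers summed to 971 to 2146 CPM in KO and 878 to 3474 CPM in Control, with the lowest Control sum in replicate 1. Over the 9 lists, 0 markers were at 0 in all libraries.

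Other genes of magnesium handling were followed as a list of 44, of which 37 could be tested. Of these, 0 rose, 2 fell (Pvalb and Umod) and 35 did not pass by edgeR, where 2.21% of all genes passed and 0.876% fell. The median log2 fold change was -0.03, against -0.02 over all genes. Before adjustment, 7 had a p under 0.05 (3 higher, 4 lower), or 18.9% against 13.9% of all genes, and DESeq2 called 3 higher and 3 lower, limma-voom 2 higher and 3 lower. Among 12 other transporters, 0 passed by edgeR, 1 had an unadjusted p under 0.05, DESeq2 called 1 and limma-voom 0. The phosphatases Ptp4a1, Ptp4a2 and Ptp4a3, which bind CNNM proteins, and the Trpm6 regulators Rack1, Phb2 and Msrb1 had log2 fold changes from -0.79 to -0.03, with 0 of 6 past the threshold or at an unadjusted p under 0.05 by edgeR, and 0 called by DESeq2 or limma-voom.

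Pvalb, the calcium- and magnesium-binding protein of the early segment, was at 1.5 to 2.14 CPM in KO and 179 to 987 CPM in Control (log2 fold change -8.06 ± 0.56, SE, edgeR adjusted p = 0.000375). Umod, the urinary protein that stands for the thick ascending limb above, was at 2427 to 4545 CPM in KO and 6028 to 10962 CPM in Control (-1.19 ± 0.25, adjusted p = 0.041), a call kept in 7 of 16 other settings. Egf, whose product raises Trpm6 activity, was at 1303 to 4263 CPM in KO and 5852 to 7801 CPM in Control. Its groups did not overlap, and its log2 fold change of -1.36 ± 0.31 had an edgeR adjusted p of 0.0552. Casr, the calcium-sensing receptor, was at 243 to 395 CPM in KO and 84.2 to 199 CPM in Control (0.98 ± 0.26, edgeR adjusted p = 0.0973), and Bsnd, the chloride channel subunit barttin, at 431 to 479 CPM in KO and 276 to 348 CPM in Control (0.49 ± 0.12, edgeR adjusted p = 0.0725). Slc25a24, a mitochondrial carrier of ATP-magnesium, was at 5.71 to 30.4 CPM in KO and 2.88 to 3.81 CPM in Control (1.99 ± 0.50, edgeR adjusted p = 0.0882). DESeq2 called Egf lower and Casr, Bsnd and Slc25a24 higher. Without KO replicate 4, its highest library, the fold change of Slc25a24 was 1.20. Pcbd1, a cofactor of HNF1 factors, had -0.41 ± 0.17 (edgeR adjusted p = 0.328) and Ptp4a3 had -0.79 ± 0.37 (edgeR adjusted p = 0.368).

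A further 7 genes of the list had too few counts to test: Trpm1, Trpm2, Trpm5, Trpm8, Nipal1, Nipal4 and Kcna1. Kcna1, a potassium channel tied to low blood magnesium in people, had 0 counts over the 4 KO libraries, which allows up to 0.025 CPM (3 counts over the group, counting error only), and 5 counts over the 4 Control libraries. Of the TRPM relatives, Trpm4 was at 14.6 to 25.3 CPM in KO and 15.4 to 23.2 CPM in Control and Trpm3 at 2.61 to 8.54 CPM in KO and 5.12 to 6.58 CPM in Control.

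For each member past the threshold, the 3 protein-coding genes with the most similar profile were found by the root mean square difference of centred log2(CPM + 1) values over the 8 libraries, among 12868 genes. The profiles contain the genotype difference, and all 15 genes found were themselves past the threshold. Nearest to Trpm6 were Adamtsl2 (0.19), Sgms2 (0.20) and Srl (0.24), with a median difference to all genes of 0.88. Among the members, Cnnm2 took rank 13 in nearness to Trpm6, Arl15 rank 45 and Slc41a3 rank 115. Nearest to Cnnm2 were Rtn1 (0.16), a gene with a mean of 0.144 CPM in KO and 1.29 CPM in Control, Etv5 (0.19) and Itpkb (0.19). Nearest to Arl15 were Kl (0.19), Sfrp1 (0.25) and Kcns1 (0.30). Nearest to Slc41a3 were Batf3 (0.33), Tmem86a (0.34) and Inpp5a (0.39). Nearest to Trpm7 were Fras1 (0.13), Rad54l (0.15) and Cadm1 (0.16). Adding 1 to CPM shrinks differences between low values, so a near profile need not mean a like fold change. Rtn1 had a log2 fold change of -3.28, against -1.21 for Cnnm2, and Kcns1 had -3.40, against -1.74 for Arl15. Rad54l had 1.76, against 0.95 for Trpm7.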

How the data were processed

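The deposited values are raw, whole-number counts of reads for each Ensembl gene identifier. Tools named in the submitters' processing notes are bcl2fastq 2.20, fastp 0.20.0 and STAR 2.7.4a, with the build GRCm38.p6. How reads were counted (program, annotation release, strand) is not given in the sources used here. Names, coordinates and exon lengths came from GENCODE vM21 on GRCm38, which named 42347 of 42416 identifiers, and promoter sequences from RefSeq on GRCm38.p6.

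Genes were kept by filterByExpr, scaled by TMM and tested by quasi-likelihood (glmQLFit, glmQLFTest, two-sided) in edgeR 4.0.16 under R 4.3.3, for genotype alone over all 8 libraries, with Benjamini-Hochberg adjustment over all 14268 genes at 0.05. Fold changes are KO over Control. Standard errors are the log2 fold change over root F, and 95% intervals are normal approximations from them. Alternatives were DESeq2 1.42.0, voom in limma 3.58.1, other scalings and filters, terms for file name and animal number, and leaving out each library. Levels per length are CPM per kilobase of the union of exons. Groups came from the genotype label. Replicates differed by more than sampling noise (chi-square per gene from 28.4 to 188 between libraries of a group). The members, lists, motifs, ratio pairs and tests were chosen with earlier results of these data known. Each ratio pair sets a member that fell against a relative that did not, so the ratios restate the fold changes. The family shares do so too, since each family holds 1 member that fell beside relatives that did not pass as lower. The named genes are the 10 members, the listed magnesium genes past the threshold and the 6 others of smallest p, and the 3 genes most like each called member. Genes named beside these to describe a list or a level were chosen after their values were seen.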

Additional observations from a re-analysis of the deposited data

Results flagged for a closer look

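In Arl15, KO replicate 3 stood at 24.3 CPM, far above the other KO libraries, which lay between 8.8 and 11 CPM, and below the Control libraries. In Mrs2, Control replicate 1 stood at 90.9 CPM, far below the other Control libraries at 137 to 145 CPM. In Pcbd1, KO replicate 1 stood at 241 CPM, above the other KO libraries at 194 to 201 CPM. Slc12a3 stood at 8074 CPM in KO replicate 1 and 3911 to 4521 CPM in the other KO libraries, and the summed distal convoluted tubule markers at 10897 CPM there and 7028 to 7318 CPM in the others. The summed endothelial markers stood at 12.7 CPM in Control replicate 1 and 30.1 to 31 CPM in the other Control libraries. Each of these single libraries had a gap to its nearest neighbour, divided by the range of its group, above Dixon's 95% limit, with values from 0.842 to 0.947. The screen covered 82 groups of 4 libraries and marked 6, where chance alone marks about 1 in 20 of independent groups. The groups were not independent: Slc12a3 made up as much as 74.1% of the distal convoluted tubule sum, and both were marked. The cause was not tested.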

How the results depend on the processing

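All 5 called members kept their direction under the 16 other settings, and Cnnm2 alone kept its call in each. The number of members past the threshold, 5 as reported, was 1 with the animal number block and 1 to 5 with 1 library left out. That block gives Control replicate 4 a term of its own, so that this library adds nothing to the comparison. The number over all genes, 316 as reported, was 749 by DESeq2, 519 by limma-voom, 140 with at least 5 CPM in 4 libraries, 199 with a file name batch term, 29 with the block and 36 to 388 with 1 library left out. The number of other magnesium genes, 2 as reported, was 6 by DESeq2, 5 by limma-voom, 4 with no filter, 1 with at least 5 CPM, 1 with the batch term, 1 with the block and 1 to 4 with 1 library left out. Fits without a library have fewer samples; for the remaining settings the cause was not tested. With library totals as the scaling, the median of all genes moved from -0.02 to 0.13, and no member changed direction. The share of calls that were higher, 60.4% as reported, was 72.9% with library totals, 44.3% with at least 5 CPM, 17.2% with the block and 34% to 66.2% with 1 library left out. The 1 reversal was Cnnm3, at -0.0031 without KO replicate 2 and up to 0.06 without another library. Scaled by the longest transcript, Trpm7 was at 113 CPM per kilobase in KO and 58.5 in Control, Cnnm3 at 6.49 in KO and 6.34 in Control and Slc41a3 at 1.96 in KO, each past 1 SD from the value reported, and the other levels moved by less. The ratios with 1 library left out and the family sums and shares by longest transcript were added after seeing the data. No paired analysis was possible because the labels tie no KO mouse to a Control mouse, and the replicate numbers only follow the order of deposit. Slc41a2 had the fewest counts, down to 40 in a library.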
